A study of Homo sapiens with 18 samples.

Results

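The TGFβ system of lung cancer cells was examined here through the genes of its 3 ligands (TGFB1, TGFB2 and TGFB3), its 3 receptors (TGFBR1, TGFBR2 and TGFBR3) and the 4 latent TGFβ binding proteins (LTBP1 to LTBP4). Members were chosen by gene symbol, and all 10 were found among the 19849 genes of the deposited table, each read by 1 probe set. TGFβ is secreted in a latent form, in which the mature cytokine is wrapped in its own propeptide and commonly tethered to a latent TGFβ binding protein that anchors the complex to fibrillin and fibronectin in the matrix. Once released by integrins, proteases or thrombospondin, the ligand is bound by TGFBR2, a serine/threonine kinase that phosphorylates TGFBR1, which in turn phosphorylates SMAD2 and SMAD3. TGFBR3, also called betaglycan, is a co-receptor that presents ligand to these kinases.

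The arrays covered 3 human lung cancer cell lines, each as untreated parental cells and as mesenchymal derivatives obtained by epithelial-mesenchymal transition (EMT). HCC827 is driven by mutant EGFR. All 6 groups grew in RPMI1640 with serum and glutamine, and each was measured on 3 Affymetrix U133 Plus 2.0 arrays, 18 in all. The mesenchymal cells (labelled EMT) were cultured with 2 ng/ml TGFβ for 3 weeks by the labels, and the methods give a longer range of times for HCC827 and NCI-H358 than for A549. The general culture methods say that cells were re-seeded without TGFβ on the day before an experiment. The array methods do not restate this. If it held for the arrays, the RNA was taken after re-seeding and after ligand had been withdrawn. The isoform added is not stated, and a change in the RNA of a ligand gene here is that of the cells' own gene. By a legend of the study, the 3 samples of a group were biologically separate and made at 1 time, so p-values measure the spread within 1 such set of samples.

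Values are RMA expression on the log2 scale, on which a step of 1 is a doubling, and they compare groups for a given gene but not one gene with another. The median array level lay between 6.31 and 6.47. Over all genes, the standard deviation of the differences between arrays was 0.163 to 0.282 within groups and 0.719 to 0.896 between parental and mesenchymal arrays of a line. The labelled states were borne out by their markers. Of 5 epithelial markers, 4 fell in A549 and 5 in both other lines, and all 5 mesenchymal markers rose in each line. Of 3 blood markers, 0 passed limma's test in any line and 0 had an unadjusted p below 0.05, and of 2 endothelial markers only PECAM1 in HCC827 passed (0.41). In NCI-H358, both endothelial markers had an unadjusted p below 0.05 but did not pass, PECAM1 at -0.32 (adjusted p = 0.0821) and CDH5 at -0.25 (adjusted p = 0.0505). NKX2-1, which marks the lung epithelial lineage, read 3.67 in parental A549, where parental cells of HCC827 read 9.18 and those of NCI-H358 8.62, so that A549 was low for this marker. SFTPB, also listed for this lineage, did not set A549 apart, at 5.68, 5.84 and 5.57 in parental A549, HCC827 and NCI-H358. With EMT, NKX2-1 had a log2 fold change of -1.06 in NCI-H358 (limma adjusted p = 1.54e-04) and did not pass in A549 or HCC827. Fibroblast markers (PDGFRA, PDGFRB and THY1) passed with higher values for 2 of 3 genes in A549, for 1 in HCC827 and for 2 in NCI-H358. Their summed log2 level went from 14.88 to 15.47 in parental A549 arrays to 16.32 to 16.41 in mesenchymal ones, from 13.58 to 14.18 up to 14.42 to 15.10 in HCC827, and from 14.05 to 14.39 up to 15.69 to 16.31 in NCI-H358. No marker was at 0, and PDGFRA was at 3.90 or below in every group mean. The part of these markers in the results below was not tested, and cells of another type cannot be told apart from a change in every cell of a bulk culture.

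Across the 10 genes, changes were frequent and mostly upward in the mesenchymal cells. A gene passed the test when limma gave a Benjamini-Hochberg adjusted p below 0.05. The study's stricter thresholds ask for more than a 5-fold change together with an adjusted p below 1e-05. In A549, 6 members rose and 3 fell, against 16.6% and 26.8% of all genes. In HCC827, 8 rose and 1 fell, against 20.8% and 25%. In NCI-H358, 7 rose and 2 fell, against 21.5% and 19.8%. With each array centred on its median, the share of higher genes among all genes called in A549 went from 38.3% to 48.9%. The 10 members had a median log2 fold change of 0.61 (A549), 0.77 (HCC827) and 0.56 (NCI-H358) against -0.02, 0.01 and 0.02 over all genes.

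The stricter thresholds were passed by 1 member in each line, and by a different one in each. TGFBR3 fell in A549, where 0.736% of all genes passed downward and 1.17% upward. LTBP2 rose in HCC827, where 1.32% passed upward and 1.63% downward. TGFB2 rose in NCI-H358, where 0.811% passed upward and 1.36% downward. Near the 5-fold line, TGFB2 fell 4.85-fold in A549, TGFB1 rose 4.73-fold in NCI-H358 and LTBP3 rose 4.63-fold in A549. The count in A549 became 2 without A549 Parental 1 or without A549 EMT 2. Parental and mesenchymal arrays did not overlap for 9 members of A549, for 9 of HCC827 and for 10 of NCI-H358, against 52.4%, 51.2% and 51.6% of all genes.

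**Figure D1:**
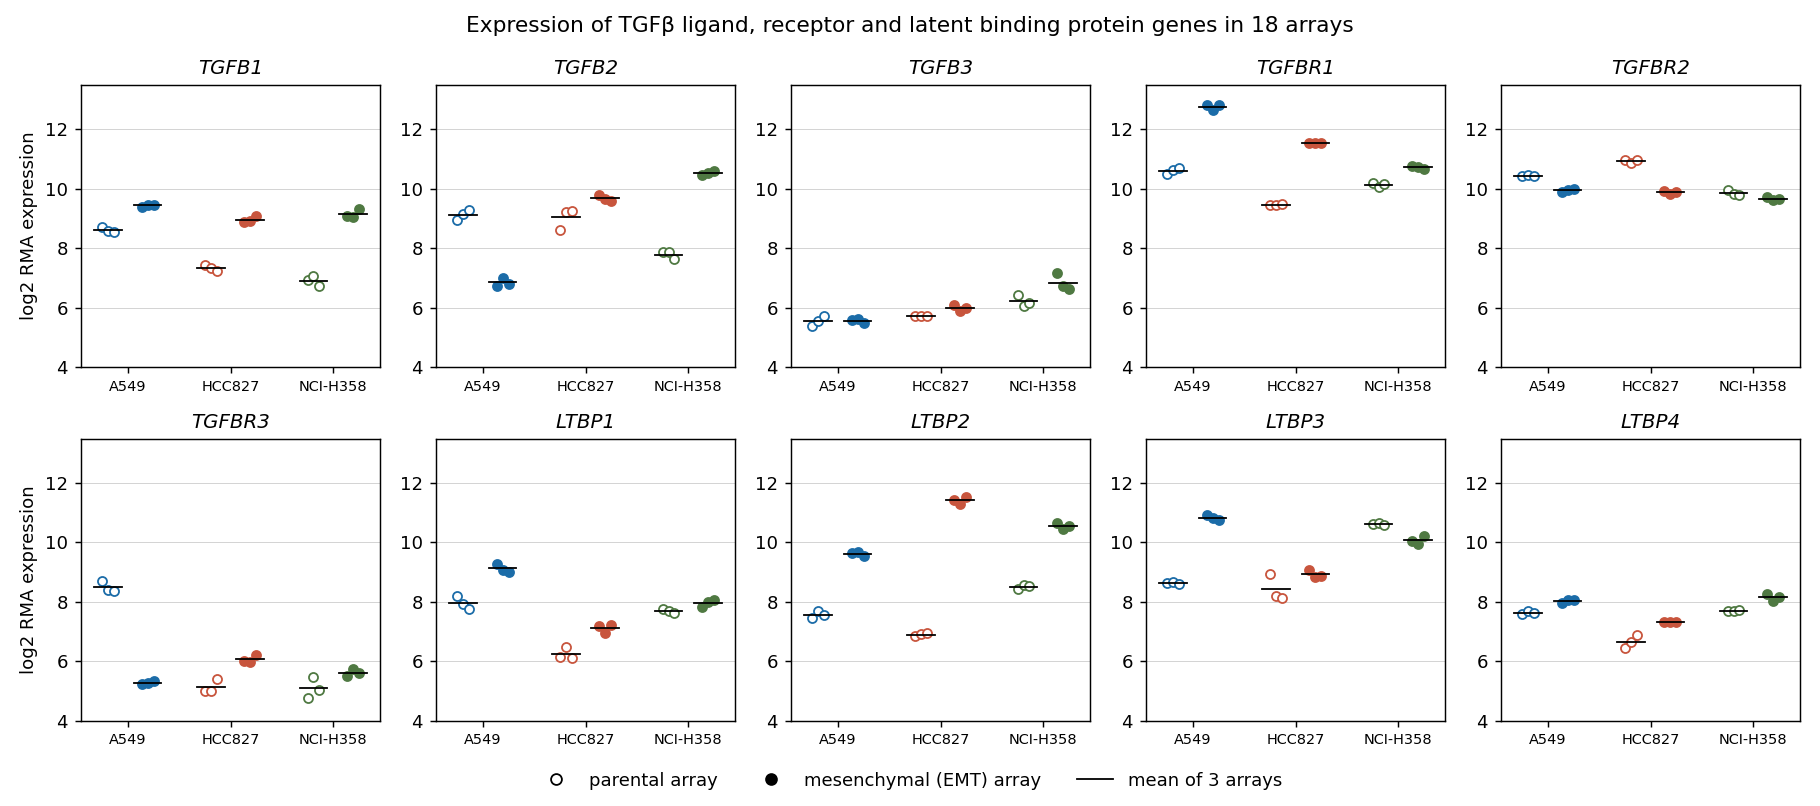
Expression of the 10 genes in each of the 18 arrays. Each panel is 1 gene, the y axis is the log2 RMA level, open points are parental arrays, filled points are mesenchymal arrays and the bar is the mean of 3 arrays. TGFBR1 and LTBP2 sit higher in the mesenchymal arrays of every line, whereas TGFBR3 and TGFB2 drop in A549 alone among the 3 lines, TGFBR3 from a mean of 8.48 to 5.27.

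Among the ligands, TGFB1, the isoform most widely made by epithelial and stromal cells, was higher in the mesenchymal cells of all 3 lines. In A549 its log2 level was 8.71, 8.59 and 8.56 in the parental arrays and 9.39, 9.47 and 9.47 in the mesenchymal arrays. HCC827 gave 7.42, 7.32 and 7.22 before and 8.88, 8.90 and 9.08 after. NCI-H358 gave 6.92, 7.06 and 6.74 before and 9.10, 9.04 and 9.31 after. Parental and mesenchymal arrays were thus separated in each line, and the line with the lowest parental level had the largest rise. A549 had a log2 fold change of 0.82 (SE 0.09, adjusted p = 1.24e-06), HCC827 one of 1.63 (SE 0.09, adjusted p = 1.29e-10) and NCI-H358 one of 2.24 (SE 0.09, adjusted p = 2.73e-12), or 1.76, 3.11 and 4.73 times the parental level.

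The 3 rises of TGFB1 differed from each other in limma's test of the difference. That of NCI-H358 exceeded that of A549 by 1.42 (95% confidence interval 1.15 to 1.70) and that of HCC827 by 0.61 (0.33 to 0.88), and HCC827 exceeded A549 by 0.82 (0.54 to 1.09). The means of the 3 lines, spread over 1.72 in parental cells, lay within 0.48 in mesenchymal cells. Ordered by level, mesenchymal A549 stood first at 9.44, followed by mesenchymal NCI-H358 at 9.15 (adjusted p = 0.0109), and the latter did not pass the test against mesenchymal HCC827 at 8.95 (adjusted p = 0.092).

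TGFB2, the isoform that depends most on TGFBR3 for binding to the kinase receptors, moved in opposite directions between lines. Its levels in A549 were 8.96, 9.14 and 9.28 in parental and 6.74, 7.0 and 6.81 in mesenchymal arrays. In NCI-H358 they were 7.86, 7.86 and 7.63 in parental and 10.48, 10.53 and 10.60 in mesenchymal arrays. HCC827 gave 8.62, 9.23 and 9.27 before and 9.79, 9.66 and 9.58 after. All arrays of the 2 states were separated in every line, but HCC827 Parental 1 lay below its other 2 parental arrays. TGFB2 fell by 2.28 in A549 (SE 0.14, adjusted p = 5.94e-10, 4.85-fold), and rose by 2.76 in NCI-H358 (SE 0.14, adjusted p = 4.30e-11, 6.75-fold) and by 0.64 in HCC827 (SE 0.14, adjusted p = 0.00103, 1.55-fold). Without HCC827 Parental 1, the change in HCC827 was 0.43.

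The changes of TGFB2 differed by 5.03 between NCI-H358 and A549 (4.62 to 5.45), by 2.92 between HCC827 and A549 (2.50 to 3.33) and by 2.12 between NCI-H358 and HCC827 (1.70 to 2.54). Parental A549 and parental HCC827, at 9.13 and 9.04, did not pass the test against each other (adjusted p = 0.62), whereas mesenchymal A549, at 6.85, was the lowest of all 6 groups and mesenchymal NCI-H358, at 10.54, the highest. The range of the 3 line means was 1.35 in parental and 3.69 in mesenchymal cells, opposite to the narrowing seen for TGFB1.

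TGFB3 moved least among the ligands. Its mean percentile among the genes of an array was 38.3 to 44.5 in the groups of A549 and HCC827. In NCI-H358 it was 47 in parental and 55.5 in mesenchymal cells. RMA compresses changes of dim probe sets, and the part of this in the small changes was not tested. TGFB3 read 5.37, 5.56 and 5.70 in parental and 5.59, 5.62 and 5.47 in mesenchymal A549 arrays, which overlapped. In HCC827 it read 5.73, 5.70 and 5.71 before and 6.08, 5.87 and 6.00 after, and in NCI-H358 6.42, 6.06 and 6.14 before and 7.15, 6.73 and 6.61 after. The 2 states were separated in both of the latter lines. The test was passed in NCI-H358 (log2 fold change 0.62, SE 0.12, adjusted p = 5.53e-04), but not in HCC827 (0.27, SE 0.12, adjusted p = 0.0921) or A549 (0.02, SE 0.12, adjusted p = 0.929). The changes in NCI-H358 and HCC827 did not pass the test of their difference, 0.35 (-0.02 to 0.73, adjusted p = 0.135), while NCI-H358 exceeded A549 by 0.60 (0.23 to 0.98).

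The promoters of the ligands TGFB1 and TGFB2 are shown because these genes share a direction in HCC827 and NCI-H358 and part in A549. Each is the 250 bases before the start that RefSeq lists (GRCh38.p14), written on the strand of the gene. TGFB1 lies at chr19:41353923-41354172, minus strand, and TGFB2 at chr1:218345086-218345335, plus strand. Capitals mark matches to 4 motifs, which did not overlap each other in these windows: the SMAD-binding element (CAGAC or GTCTG), an AP-1 site (TGAGTCA or TGACTCA), the E-box bound by ZEB and SNAI factors (CACCTG or CAGGTG), and, on the gene's strand, the TATA box (TATAAA).
TGFB1: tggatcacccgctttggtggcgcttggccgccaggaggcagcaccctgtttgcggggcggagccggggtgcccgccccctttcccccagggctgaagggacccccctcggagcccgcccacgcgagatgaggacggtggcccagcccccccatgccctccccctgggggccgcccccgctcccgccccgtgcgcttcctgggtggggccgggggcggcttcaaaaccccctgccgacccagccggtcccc
TGFB2: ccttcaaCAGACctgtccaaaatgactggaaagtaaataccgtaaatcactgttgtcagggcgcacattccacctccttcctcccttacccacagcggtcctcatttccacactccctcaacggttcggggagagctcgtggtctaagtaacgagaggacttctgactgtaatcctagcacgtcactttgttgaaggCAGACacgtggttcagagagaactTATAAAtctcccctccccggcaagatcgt
The TGFB1 window held 0 matches to any of the 4 and is 76.8% G and C. That of TGFB2 is 50.4% G and C and held 2 SMAD-binding elements, whose first letters stand 243 and 53 bases before the start, and 1 TATA box at 29 bases. Of the 35116 windows of this length in the same table, 38% held a SMAD-binding element, 4.2% an AP-1 site, 17.5% the E-box and 6.8% a TATA box. These matches describe letters only, and binding was not measured.

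Of the receptors, TGFBR1 rose and TGFBR2 fell in each line, although both act in the same complex. TGFBR1, the type I kinase, gave 10.51, 10.64 and 10.70 in parental and 12.82, 12.65 and 12.84 in mesenchymal A549 arrays. It gave 9.47, 9.45 and 9.49 in parental and 11.54, 11.53 and 11.56 in mesenchymal HCC827 arrays. For NCI-H358 the levels were 10.20, 10.05 and 10.15 before and 10.76, 10.73 and 10.67 after. No parental array reached the mesenchymal arrays of its line. In A549 the log2 fold change was 2.16 (SE 0.07, adjusted p = 1.07e-13), HCC827 had 2.07 (SE 0.07, adjusted p = 1.55e-13) and NCI-H358 had 0.59 (SE 0.07, adjusted p = 1.68e-06). The rise was 4.46-fold and 4.21-fold in the former 2 lines and 1.5-fold in the third. A549 and HCC827 did not differ detectably in this change, with a difference of -0.08 (-0.29 to 0.12, adjusted p = 0.539), and the change in NCI-H358 minus that in A549 was -1.57 (SE 0.10, adjusted p = 8.97e-10) and minus that in HCC827 -1.48 (SE 0.10, adjusted p = 3.00e-09). Mesenchymal NCI-H358 and parental A549, at 10.72 and 10.62, did not pass the test against each other (adjusted p = 0.205).

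TGFBR2, the type II kinase that binds ligand first, read 10.42, 10.46 and 10.42 in parental A549 and 9.89, 9.97 and 10.01 in the mesenchymal arrays. In HCC827 it read 10.98, 10.87 and 10.98 before and 9.94, 9.83 and 9.88 after. In NCI-H358 it read 9.95, 9.83 and 9.78 before and 9.72, 9.62 and 9.65 after. States were separated in every line, most narrowly in NCI-H358. TGFBR2 fell by 0.48 in A549 (SE 0.06, adjusted p = 8.52e-06), while in HCC827 it fell by 1.06 (SE 0.06, adjusted p = 3.03e-10) and in NCI-H358 it fell by 0.19 (SE 0.06, adjusted p = 0.0202). The last call was lost without NCI-H358 Parental 1, EMT 2 or EMT 3 (adjusted p = 0.107, 0.0789 and 0.0566) and with the arrays centred on the median (0.0736). HCC827 had the strongest fall, with a difference of -0.58 from the change in A549 (SE 0.09, adjusted p = 4.78e-05), while NCI-H358 minus HCC827 was 0.86 (SE 0.09, adjusted p = 7.72e-07). The line means, which spanned 1.09 in parental cells, spanned 0.30 in mesenchymal cells, where A549 and HCC827, at 9.96 and 9.88, did not pass the test against each other (adjusted p = 0.357).

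TGFBR3 was high only in parental A549 among the 6 groups, and that level was lost in the mesenchymal derivative. The parental A549 arrays read 8.69, 8.4 and 8.37 and the mesenchymal arrays 5.23, 5.26 and 5.32. In HCC827 the levels were 4.98, 5.0 and 5.41 before and 6.00, 5.97 and 6.22 after. NCI-H358 gave 4.77, 5.47 and 5.02 before and 5.49, 5.75 and 5.59 after. The states did not overlap in any line, although NCI-H358 Parental 2 lay just under the lowest mesenchymal array. TGFBR3 fell by 3.22 in A549 (SE 0.15, adjusted p = 1.95e-11, 9.30-fold), the 0.327th percentile of all genes' changes there. It rose by 0.93 in HCC827 (SE 0.15, adjusted p = 6.23e-05) and by 0.53 in NCI-H358 (SE 0.15, adjusted p = 0.00944), and the latter call was lost without NCI-H358 Parental 1, with a change of 0.37 (adjusted p = 0.0642).

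The fall of TGFBR3 in A549 differed from the change in HCC827 by 4.15 (3.69 to 4.60) and from that in NCI-H358 by 3.74 (3.29 to 4.20). The changes of HCC827 and NCI-H358 did not pass the test of their difference, -0.40 (-0.86 to 0.05, adjusted p = 0.161), but did so without NCI-H358 Parental 1, at -0.56 (adjusted p = 0.0388). Parental line means spanned 3.40 and mesenchymal means 0.80. After parental A549 at 8.48 the next group was mesenchymal HCC827 at 6.06, which passed against mesenchymal NCI-H358 at 5.61 (adjusted p = 0.0184), and the steps between neighbours within the 4 lowest groups, from 5.61 to 5.08, did not pass. The promoter of TGFBR3 is shown as that of the gene with the deepest fall (RefSeq, GRCh38.p14, chr1:91886152-91886401, minus strand), with the same motifs searched.
TGFBR3: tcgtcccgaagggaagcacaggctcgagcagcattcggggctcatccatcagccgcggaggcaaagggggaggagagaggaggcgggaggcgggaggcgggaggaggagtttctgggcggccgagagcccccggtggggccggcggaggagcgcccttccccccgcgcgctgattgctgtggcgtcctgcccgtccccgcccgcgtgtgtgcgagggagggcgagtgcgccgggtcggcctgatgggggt
It is 73.6% G and C and held 0 matches to the 4 motifs.

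**Figure D2:**
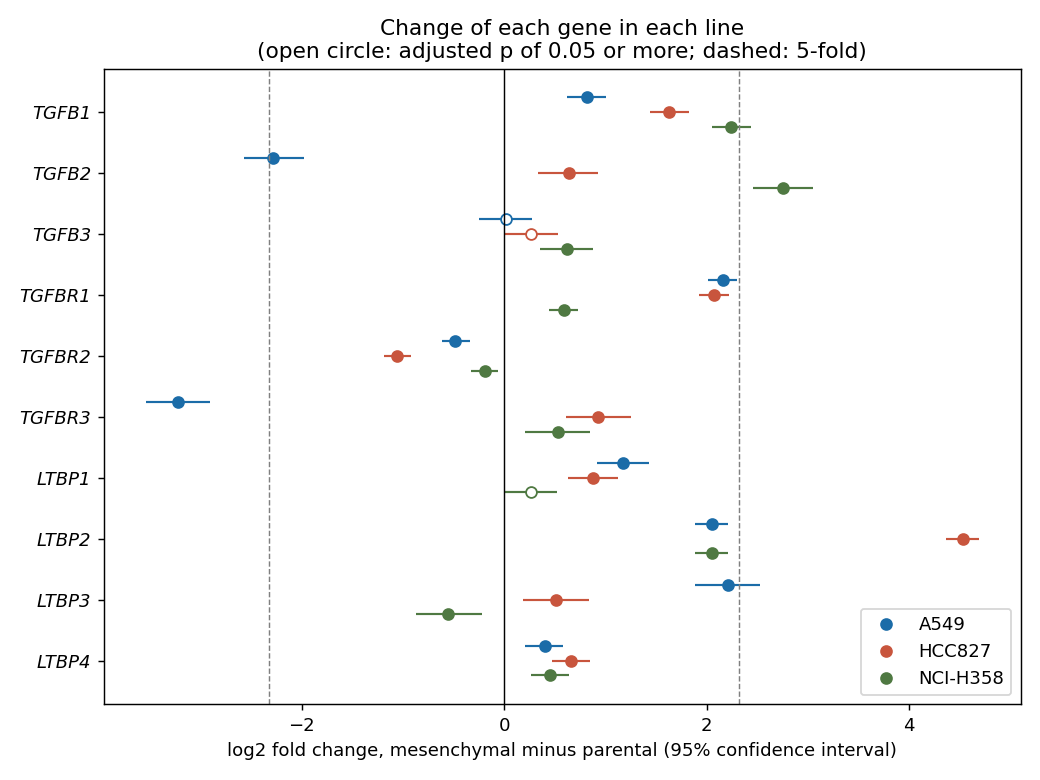
Log2 fold change of each gene, mesenchymal minus parental, in A549, HCC827 and NCI-H358 with its 95% confidence interval from limma. Filled circles passed an adjusted p below 0.05, open circles did not, and dashed lines mark a 5-fold change. LTBP2 in HCC827 at 4.53, TGFB2 in NCI-H358 at 2.76 and TGFBR3 in A549 at -3.22 lie beyond those lines.

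Most changes of the latent binding proteins were rises, and in HCC827 LTBP2 rose furthest of all members. LTBP2 is a fibrillin-binding matrix protein which, unlike the others of its family, is not known to bind latent TGFβ. Its levels were 7.46, 7.69 and 7.56 in parental and 9.65, 9.67 and 9.55 in mesenchymal A549 arrays. HCC827 went from 6.85, 6.90 and 6.94 to 11.44, 11.31 and 11.52. NCI-H358 went from 8.43, 8.55 and 8.53 to 10.65, 10.45 and 10.57. The lowest mesenchymal array in any line, at 9.55, stood above the highest parental array, at 8.55. The log2 fold change was 4.53 in HCC827 (SE 0.08, adjusted p = 5.06e-17, 23-fold) and 2.05 in both A549 (SE 0.08, adjusted p = 7.34e-13) and NCI-H358 (SE 0.08, adjusted p = 8.35e-13), each 4.15-fold. A549 and NCI-H358 differed by 0.00 (-0.23 to 0.23, adjusted p = 0.998), and HCC827 exceeded each by 2.47 (2.25 to 2.70).

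All 6 groups differed from their neighbours in the order of LTBP2 levels. HCC827 moved from the last place, 6.90, to the first, 11.42, passing mesenchymal NCI-H358 at 10.56 and mesenchymal A549 at 9.62. The promoter of LTBP2 is printed as that of the member that passed the stricter thresholds in HCC827 (RefSeq, GRCh38.p14, chr14:74612238-74612487, minus strand).
LTBP2: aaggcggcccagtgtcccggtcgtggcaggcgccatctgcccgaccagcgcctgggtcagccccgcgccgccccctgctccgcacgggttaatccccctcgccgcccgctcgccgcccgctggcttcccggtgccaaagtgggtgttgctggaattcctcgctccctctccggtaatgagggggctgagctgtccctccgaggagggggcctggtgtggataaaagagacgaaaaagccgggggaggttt
This window, 68.8% G and C, held 0 matches to the motifs searched.

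LTBP1, which tethers latent TGFβ to the matrix, gave 8.18, 7.91 and 7.76 in parental and 9.29, 9.07 and 9.01 in mesenchymal A549 arrays. In HCC827 it gave 6.13, 6.48 and 6.10 before and 7.18, 6.96 and 7.22 after, and in NCI-H358 7.76, 7.69 and 7.61 before and 7.84, 7.98 and 8.05 after. The states were separated in every line, by little in NCI-H358. LTBP1 rose by 1.18 in A549 (SE 0.12, adjusted p = 4.02e-07, 2.26-fold) and by 0.88 in HCC827 (SE 0.12, adjusted p = 9.02e-06, 1.84-fold), and the change of 0.27 in NCI-H358 did not pass (SE 0.12, adjusted p = 0.0883). The change in NCI-H358 minus that in A549 was -0.91 (SE 0.17, adjusted p = 3.14e-04), and minus that in HCC827 it was -0.61 (SE 0.17, adjusted p = 0.00842). The changes in HCC827 and A549 differed by -0.30 (-0.66 to 0.06, adjusted p = 0.182), and by -0.41 with array weights, which passed (adjusted p = 0.0432). Although it rose there, LTBP1 stayed lower in mesenchymal HCC827, at 7.12, than in any group of the other lines.

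LTBP3, which also binds latent TGFβ and assists its secretion, changed in a different direction between lines. It read 8.62, 8.68 and 8.59 in parental and 10.93, 10.82 and 10.77 in mesenchymal A549 arrays. In NCI-H358 it read 10.63, 10.64 and 10.58 before and 10.06, 9.94 and 10.21 after. HCC827 gave 8.95, 8.18 and 8.14 before and 9.08, 8.84 and 8.88 after, so that HCC827 Parental 1 lay among the mesenchymal arrays. LTBP3 rose by 2.21 in A549 (SE 0.15, adjusted p = 3.05e-09, 4.63-fold) and fell by 0.55 in NCI-H358 (SE 0.15, adjusted p = 0.00782, 1.46-fold). In HCC827 it passed with a change of 0.51 (SE 0.15, adjusted p = 0.011), a call lost without HCC827 Parental 2, Parental 3 or EMT 1 (adjusted p = 0.0669, 0.07 and 0.052). Without HCC827 Parental 1 that change was 0.78.

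All 3 pairs of lines differed in the change of LTBP3. NCI-H358 minus A549 was -2.76 (SE 0.22, adjusted p = 2.06e-08), NCI-H358 minus HCC827 was -1.06 (SE 0.22, adjusted p = 8.32e-04), and HCC827 minus A549 was -1.70 (SE 0.22, adjusted p = 6.18e-06). The highest levels were those of mesenchymal A549, at 10.84, and parental NCI-H358, at 10.62, which did not pass the test against each other (adjusted p = 0.23).

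LTBP4, a matrix protein that binds the latent form of the TGFB1 product, showed the most even change. Its probe set is of the kind whose probes may also match other sequences. The levels were 7.60, 7.68 and 7.61 before and 7.95, 8.07 and 8.06 after in A549. They were 6.45, 6.63 and 6.89 before and 7.31, 7.32 and 7.32 after in HCC827, and 7.68, 7.69 and 7.71 before and 8.26, 8.02 and 8.16 after in NCI-H358. No overlap between states was seen. In A549 LTBP4 rose by 0.40 (SE 0.09, adjusted p = 0.00149), HCC827 showed a rise of 0.66 (SE 0.09, adjusted p = 8.29e-06) and NCI-H358 one of 0.45 (SE 0.09, adjusted p = 4.48e-04). It was the 1 member for which no pair of lines passed the test of a difference, with intervals of -0.01 to 0.53 for HCC827 minus A549, -0.21 to 0.32 for NCI-H358 minus A549 and -0.47 to 0.06 for NCI-H358 minus HCC827. Without HCC827 Parental 3, HCC827 exceeded A549 by 0.38 (adjusted p = 0.00806) and NCI-H358 minus HCC827 was -0.32 (adjusted p = 0.0246).

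Compared between lines, 6 of the 10 changes differed between HCC827 and A549, 8 between NCI-H358 and A549 and 7 between NCI-H358 and HCC827, where 42.2%, 42.8% and 37.9% of all genes did. The 3 comparisons share lines and are not independent of each other. Members that passed with the same direction in all 3 lines were TGFB1, TGFBR1, LTBP2 and LTBP4 upward, against 4.31% of all genes, and TGFBR2 downward, against 6.14%. Of these calls, that of TGFBR2 in NCI-H358 depended on single arrays. TGFB2, TGFBR3 and LTBP3 passed in every line with unlike directions: A549 stood alone against the other 2 lines for TGFB2 and TGFBR3, and NCI-H358 did so for LTBP3. The calls of TGFBR3 in NCI-H358 and of LTBP3 in HCC827 also depended on single arrays. The spread of line means was smaller after EMT for 5 of 10 members and for 50% of all genes.

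**Figure D3:**
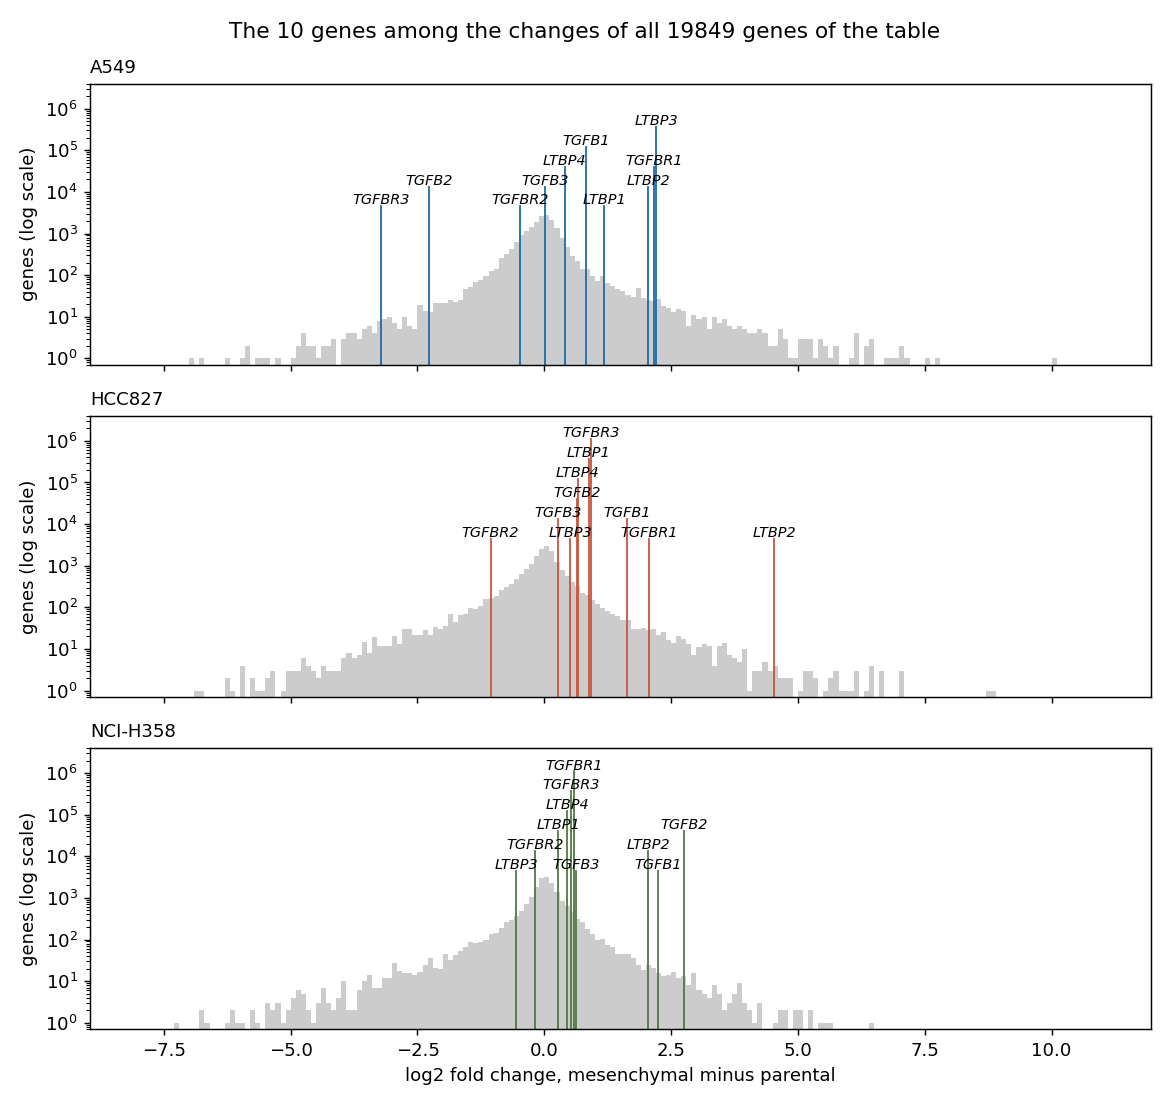
The changes of the 10 genes (coloured lines) within those of all 19849 genes (grey bars, bins of 0.1), 1 panel per line. The x axis is the log2 fold change, mesenchymal minus parental, the y axis is the number of genes on a log scale, and the height of a coloured line carries no value. Most members lie to the right of 0, while TGFBR3 and TGFB2 in A549 lie far to the left at -3.22 and -2.28.

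The genes whose levels over the 18 arrays followed those of a member most closely were sought among 9050 genes with group means at least 1 apart. For LTBP2 these were MAGED2 (Pearson r = 0.977), P4HA2 (r = 0.976) and FBN1 (r = 0.97). TGFBR3 was followed by DIO2 (r = 0.962), PKDCC (r = 0.961) and NEIL3 (r = 0.96), and TGFB2 by FAM216A (r = 0.923) and TMEM237 (r = 0.91). The 18 points share 6 groups and the same arrays, so these coefficients describe the group pattern and are given without a p.

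The wider list of genes for latency and release of TGFβ held more genes that rose than fell in each line. Of 21 genes in this list, A549 had 11 that rose and 2 that fell, HCC827 13 and 2, and NCI-H358 11 and 3, while 8, 6 and 7 did not pass. Over all genes, the shares that rose and fell were 16.6% and 26.8% for A549, 20.8% and 25% for HCC827, and 21.5% and 19.8% for NCI-H358. The list's median log2 fold change was 0.74, 0.62 and 0.36, against -0.02, 0.01 and 0.02 over all genes. FBN1 (fibrillin-1, the microfibril protein to which the binding proteins attach) rose by 1.71 (A549), 4.47 (HCC827) and 2.65 (NCI-H358). FN1 (fibronectin) rose by 3.11, 3.98 and 1.99 and THBS1 (thrombospondin-1, an activator of latent TGFβ) by 2.93, 2.16 and 3.24 in the same order of lines.

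Other release genes parted between lines. MMP2, a gelatinase able to release TGFβ, rose by 6.13 in A549 and 7.01 in HCC827, with 0.36 in NCI-H358 (adjusted p = 0.0899). MMP9, the other gelatinase, rose by 5.18 in HCC827 and 3.32 in NCI-H358, with -0.3 in A549 (adjusted p = 0.12). ITGB6, the integrin subunit of the epithelial activator αvβ6, rose by 2.26 in A549 while it fell by 2.42 in HCC827 and fell by 2.86 in NCI-H358. Other integrin subunits of the list went different ways. ITGB8 fell by 2.39 in A549 and by 1.84 in HCC827, with -0.07 in NCI-H358 (limma adjusted p = 0.779). ITGB5 fell by 1.60 in A549 and rose by 1.10 in HCC827, with 0.26 in NCI-H358 (limma adjusted p = 0.283). ITGB3 rose by 2.39, 2.87 and 1.85 in A549, HCC827 and NCI-H358. TGM2, the transglutaminase that crosslinks latent complexes into matrix, rose by 2.61 in A549 and by 0.95 in HCC827 and fell by 3.22 in NCI-H358. Differences between lines were not tested for these genes.

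**Figure D4:**
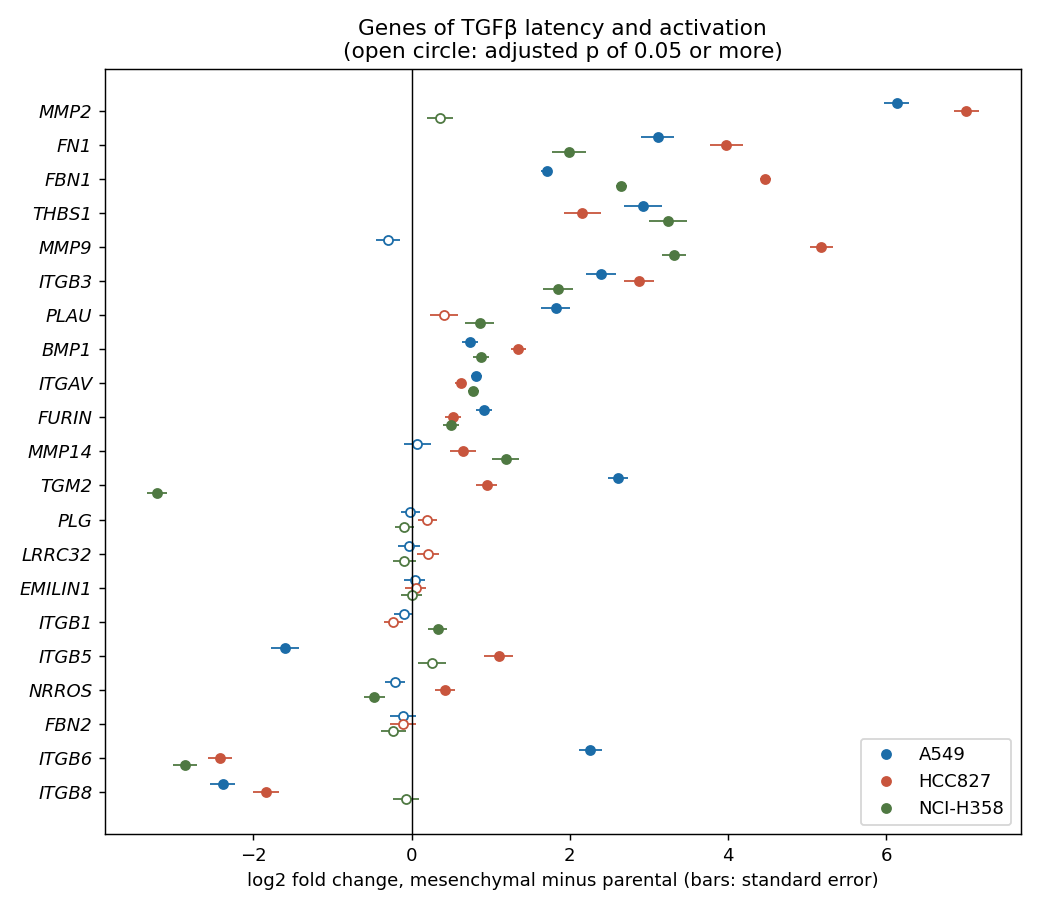
Log2 fold change, mesenchymal minus parental, of the 21 genes of latency and activation in each line, with standard errors as bars. Filled circles passed an adjusted p below 0.05 and open circles did not. MMP2 reaches 6.13 in A549 and 7.01 in HCC827, FBN1 is raised in all 3 lines, and ITGB6 and TGM2 have values on both sides of 0.

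For the other 3 lists the shares over all genes are the same, 16.6% and 26.8%, 20.8% and 25%, and 21.5% and 19.8%. Downstream of the receptors, the list of 18 genes of signalling and inhibition held 5 higher and 4 lower genes for A549, 8 and 2 for HCC827 and 10 and 4 for NCI-H358, with medians of -0.03, 0.05 and 0.28 against -0.02, 0.01 and 0.02 over all genes. The A549 counts lay near the 16.6% and 26.8% of all genes. PMEPA1, a TGFβ-induced gene whose product inhibits SMAD signalling, was the 1 gene to pass the stricter thresholds, rising by 4.52 in HCC827 and 2.92 in NCI-H358, and it rose by 1.29 in A549. The list of 11 related receptors held mostly those for activins and bone morphogenetic proteins, with ENG and AMHR2 besides. Of these 11, 3 rose and 2 fell for A549, 4 and 2 for HCC827 and 5 and 1 for NCI-H358, and 0 passed the stricter thresholds. For A549 these counts too lay near those shares of all genes. Known TGFβ target genes were 11 higher and 1 lower of 15 for A549, 11 and 3 for HCC827 and 13 and 2 for NCI-H358, with medians of 0.93, 1.17 and 1.13 against -0.02, 0.01 and 0.02 over all genes. COL1A1 (a chain of type I collagen) rose by 3.42, 4.41 and 3.65 and TAGLN (transgelin, an actin-binding protein) by 3.64, 4.21 and 3.76 in A549, HCC827 and NCI-H358. COL1A2, the other chain, rose by 2.11 in HCC827 and 0.71 in NCI-H358, with 0.21 in A549 (limma adjusted p = 0.53). CCN2 (listed as CTGF, a matricellular protein) rose by 3.59, 3.55 and 1.76, and SNAI2 (a repressor of epithelial genes) by 3.71, 1.26 and 1.13. ID1, an inhibitor of basic helix-loop-helix factors, rose by 0.57 in A549 but fell by 4.09 in HCC827 and fell by 0.59 in NCI-H358.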

How the data were processed

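Total RNA of the 18 samples was hybridized to Affymetrix U133 Plus 2.0 arrays. The authors normalized the arrays by RMA, named also in the submitters' processing notes, and deposited log2 values of 19849 genes with 1 probe set per gene. RMA forces a common signal distribution on all arrays and compresses changes of dim probe sets. The rule for choosing the probe set is not given in the sources used here, and other probe sets of the 10 genes were not analysed here. RefSeq tables held 19326 of these gene IDs, and 0 columns lacked a sample.

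Groups were taken from the labels, and arrays were numbered in accession order. Limma 3.58.1 in R 4.3.3 fitted all 18 arrays with 6 groups and no covariate, with p-values adjusted by the Benjamini-Hochberg method over all genes. Changes, differences of changes and pairs of groups were contrasts of this fit, which was tested on simulated data. The members, the gene lists and the tests were chosen with earlier results of these data known. All members were named, with list genes passing the stricter thresholds (at most 4 per list and line) and the 3 genes most correlated with each member that passed them, except that a few genes under this rule are not reported here. FN1 and SNAI2 stand in both a pathway list and a marker list. Alternatives were separate fits per line, an intensity trend, array weights, a filter on a mean level above 5, median centring, other thresholds, a t-test within each line and arrays left out. Promoters were read from RefSeq tables (GRCh38.p14), which hold 1 start for TGFB1, TGFB2, TGFBR3 and LTBP2 and several for the other members, whose promoters were not printed.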

Additional observations from a re-analysis of the deposited data

Results flagged for a closer look

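In limma's test of the difference between lines, 21 of 30 differences in the change of a member passed an adjusted p below 0.05. By pair of lines these were 6 of 10 for HCC827 and A549, 8 for NCI-H358 and A549 and 7 for NCI-H358 and HCC827. Over all genes, 42.2%, 42.8% and 37.9% passed in the same order. The 3 comparisons share lines and are not independent of each other. For TGFB1 the change was larger in HCC827 than in A549 by 0.82, in NCI-H358 than in A549 by 1.42 and in NCI-H358 than in HCC827 by 0.61. For TGFB2 the same differences were 2.92, 5.03 and 2.12, and for TGFB3 that of NCI-H358 and A549 was 0.60. TGFBR1 differed by -1.57 between NCI-H358 and A549 and by -1.48 between NCI-H358 and HCC827. TGFBR2 differed by -0.58 between HCC827 and A549, by 0.28 between NCI-H358 and A549 and by 0.86 between NCI-H358 and HCC827. TGFBR3 differed by 4.15 between HCC827 and A549 and by 3.74 between NCI-H358 and A549. LTBP1 differed by -0.91 between NCI-H358 and A549 and by -0.61 between NCI-H358 and HCC827. LTBP2 differed by 2.47 between HCC827 and A549 and by -2.47 between NCI-H358 and HCC827. LTBP3 differed by -1.70 between HCC827 and A549, by -2.76 between NCI-H358 and A549 and by -1.06 between NCI-H358 and HCC827. Each value is the change in the line named first minus that in the second.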

How the results depend on the processing

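At the stricter thresholds 1 member passed in each line. With a fold change above 2 in place of 5 the counts were 6 for A549, 4 for HCC827 and 3 for NCI-H358. With one above 10 they were 0 for A549 and 0 for NCI-H358. The share of all genes passing was not taken at fold changes of 2 or 10. Whether these counts exceed an array-wide rate was therefore not tested. A two-sided t-test within each line gave 0, 0 and 0 at the stricter thresholds. That test estimates the spread from 6 arrays alone and is not the limma analysis the study's methods name for the arrays. The 3 arrays with the lowest title numbers were A549 Parental 1, HCC827 Parental 1 and NCI-H358 Parental 1, all on the parental side. Leaving out these 3 arrays gave 2 in A549, and leaving out 1 array at a time gave 1 to 2 there. The change of TGFB3 in A549 turned to -0.07 without those 3 arrays and ranged from -0.07 to 0.09 with 1 array left out. The difference of LTBP2 between NCI-H358 and A549 turned to -0.03 with the arrays centred on the median and ranged from -0.06 to 0.05 with 1 array left out. Neither of these 2 passed the test in any of these fits.

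Of the 30 changes, 24 kept their side of the threshold of 0.05 under the t-test, 26 in a separate fit per line, 27 with centred arrays and 30 with an intensity trend, with array weights or with a filter on dim genes. The t-test did not call TGFB2 or LTBP3 in HCC827, nor TGFB3, TGFBR2 or TGFBR3 in NCI-H358, and called TGFB3 in HCC827. Separate fits did not call LTBP3 in HCC827 or TGFBR2 in NCI-H358, and both separate fits and centring called TGFB3 in HCC827 and LTBP1 in NCI-H358. Without the 3 arrays of lowest title number, TGFBR2 and TGFBR3 in NCI-H358 did not pass (adjusted p = 0.103 and 0.0509). The cause was not tested. No paired analysis was possible because the labels give no replicate numbers. The number of arrays limits the precision, and an exact permutation test of 3 against 3 arrays cannot go below p = 0.1.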
